A study of Mus musculus and Canis lupus familiaris and Equus caballus with 9 samples.

Results

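The genes described here encode the mouse receptors for serotonin, dopamine, adrenaline and noradrenaline, and the muscarinic receptors for acetylcholine. A list of 32 receptor genes was given by name, in 4 groups: 14 serotonin, 5 dopamine, 8 adrenergic and 5 muscarinic receptor genes. All 32 were found among the 21900 protein-coding genes of the RefSeq table of GRCm38.p6, the assembly also called mm10. The genes were chosen by family and not by their peaks, but with earlier results of these data known. They were set against the binding of NRSF (also named REST), a zinc-finger repressor, mapped by ChIP-seq, the sequencing of DNA pulled down with an antibody, in RAW264.7, an established macrophage line of BALB/c mice. The mouse arm held 2 immunoprecipitated samples and 1 input DNA sample, at passages 13 to 15 and with no treatment named in the labels. Both immunoprecipitated samples are tied to 1 list of 2357 peaks, each 400 bp wide. The list gives positions only, with no height, no p-value and nothing per replicate. It therefore has no replicate error, and the read depth is unknown. A weakly bound site also cannot be told apart from a site bound in few of the cells. The macrophage label could not be checked against marker genes, because no expression was measured. Dog and horse cells and a human list were also part of the series and are not analysed here.

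Serotonin and dopamine receptors, adrenergic receptors and muscarinic receptors are nearly all seven-helix proteins that signal through G proteins. Those coupled to Gi/o lower cyclic AMP, those coupled to Gs raise it, and those coupled to Gq/11 release calcium from stores through phospholipase C. The serotonin receptor subunits encoded by Htr3a and Htr3b are the exception, since they form a cation channel opened by the transmitter. NRSF is known for holding neuronal genes silent in cells that are not neurons. It recognises the RE1 element, whose canonical form joins a left and a right part with a short spacer between them.

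A peak was counted for a gene when its midpoint lay inside the annotated gene span or within 10 kb of either end. By this rule 8 of the 32 receptor genes had a peak (25.0%), compared with 1640 of all 21900 protein-coding genes (7.49%). The 8 were Htr1a, Htr3a, Htr5a, Htr6, Drd2, Chrm2, Chrm4 and Chrm5, and 9 peaks lay at them, since Drd2 had 2. Muscarinic receptors had the highest share, with 3 of 5 genes. Serotonin receptors followed with 4 of 14 genes and dopamine receptors with 1 of 5, and none of the 8 adrenergic receptor genes had a peak. At a reach of 1 or 5 kb the muscarinic count was 2 of 5, without Chrm2, and the counts of the other groups were unchanged.

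The sequence of Htr5a is shown first, because it was the 1 receptor gene with a promoter in the RefSeq table that overlapped a peak. The table holds windows from 250 bases before to 50 after a listed transcription start, and 25 of the 32 receptor genes were matched to 29 such windows. Htr3a, Htr4, Htr5b, Adra1a, Adra1d, Adrb3 and Chrm1 were not matched. The windows were searched on both strands for the RE1 core, written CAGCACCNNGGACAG, in which N is any base and the other 13 letters are compared. The 250 bases before the listed start of Htr5a, on the plus strand at chr5:27841697-27841946 (GRCm38.p6), are given below with the best match to the core in capitals.

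Htr5a: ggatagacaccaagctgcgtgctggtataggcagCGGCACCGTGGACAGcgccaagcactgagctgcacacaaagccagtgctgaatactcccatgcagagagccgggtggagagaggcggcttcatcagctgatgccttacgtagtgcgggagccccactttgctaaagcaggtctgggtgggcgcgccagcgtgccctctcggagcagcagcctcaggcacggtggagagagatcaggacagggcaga

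The Htr5a match differed from the core by 1 letter, A2G, counted from 1 at the first base of the core, with the core's base named first. It ran in the direction of the gene and lay at 27841731 to 27841745 on chromosome 5, with its middle at position -209 bp relative to the listed start. The peak spanned 27841545 to 27841945, and the middle of the match was 7 bp from its midpoint. Among all 32851 windows of the table, 61 (0.186%) held a match with at most 1 difference. With at most 2 differences there were 632 windows (1.92%).

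Chrm4 and Drd2 also had windows with a match of at most 2 differences, so that 3 of the 29 receptor windows (10.3%) did. Their matches are shown with 13 bases on each side, read along the gene, and the capitals again mark the match. They are printed because both genes have a peak nearby but not at the match. Hrh3, the gene of the histamine H3 receptor, is added as an aminergic relative outside the 32 whose window also overlapped a peak.

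Chrm4: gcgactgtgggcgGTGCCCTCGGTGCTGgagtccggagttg
Drd2: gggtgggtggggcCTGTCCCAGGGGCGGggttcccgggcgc
Hrh3: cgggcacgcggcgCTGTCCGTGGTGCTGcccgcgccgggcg

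All 3 of these matches lay on the strand opposite to the gene. The Chrm4 match, at 91921979 to 91921993 on chromosome 2, had the differences A12G and G15C, and its middle was 641 bp from the peak midpoint. In Drd2 the match lay at 49340301 to 49340315 on chromosome 9 with the differences A2C and A5C, 917 bp from the closest peak midpoint. Both matches were therefore outside the 400 bp of the peak. The Hrh3 match at 180104576 to 180104590 on chromosome 2 had no difference from the core and lay 12 bp from a peak midpoint. Among genes of other transmitter receptors, Grm2 (metabotropic glutamate) and Chrnb2 (nicotinic) also had a window at a peak. Their best matches had 3 and 5 differences and lay 2 and 387 bp from the peak midpoint, so neither held the core as defined here.

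Over the whole table, 145 windows overlapped a peak, and 30 of these (20.7%) held the core with at most 2 differences, compared with 602 of 32706 windows at no peak (1.84%). In those 30 windows the middle of the match was a median of 7.0 bp from the peak midpoint, and in 25 it was within 50 bp. Htr5a, at 7 bp, was at that median. The left and right parts alone were more widespread: CAGCACC was in 5 of the 29 receptor windows and in 7.14% of all windows, and GGACAG in 10 of the 29 and in 22.2% of all. A match describes letters in these windows only. The sequence under the peaks of the other 7 receptor genes with a peak was not analysed here.

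**Figure D1:**
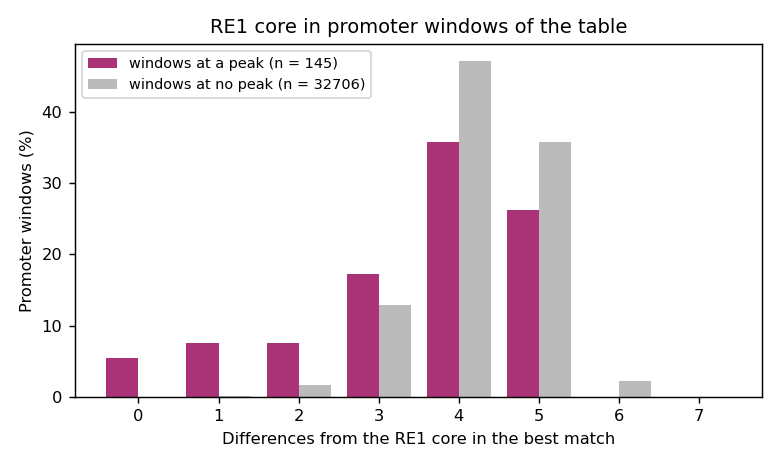
The smallest number of differences from the RE1 core (horizontal axis) is plotted against the percentage of promoter windows (vertical axis) for the 145 windows at a peak and the 32706 at no peak. Windows at a peak hold more of the matches with 0 to 2 differences, 30 of 145 against 602 of 32706, while 4 differences is the most frequent value in both sets.

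Among the serotonin receptors, Htr1a encodes a Gi/o-coupled receptor found on serotonin neurons and their targets. Its peak lay on chromosome 13 at 105442595 to 105442995, with the midpoint 898 bp before the listed start. Htr5a, also counted as Gi/o-coupled, had the peak described above, 29 bp inside the lower end of the gene span and 202 bp before the listed start. Both peaks were thus on the 5′ side of their genes.

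Htr3a, which encodes the obligatory subunit of the serotonin-gated channel, had a peak on chromosome 9 at 48898550 to 48898950. The midpoint was 463 bp outside the lower end of the span, whose strand was not listed, and inside the lncRNA gene Gm32335. The gap between the spans of Htr3a and Htr3b, the gene of the partner subunit, was 23.9 kb. Htr3b had no peak by the rule, since the same peak was its closest, 36.3 kb away. Htr6, a Gs-coupled receptor gene, had its peak on chromosome 4 at 139059595 to 139059995. That midpoint was 89 bp inside the 3′ end of Htr6 and 14994 bp downstream of the nearest listed start. It was also 622 bp from an end of Tmco4, a protein-coding neighbour.

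The other 10 serotonin receptor genes had no peak by the rule. Of the Gi/o-coupled ones, Htr1d had its closest peak 303.4 kb away, Htr1f 2166 kb and Htr1b 2954 kb. In the Gq/11-coupled genes the distances were 442.5 kb for Htr2c, on chromosome X, 660.1 kb for Htr2a and 1164 kb for Htr2b. Htr7 and Htr4, both Gs-coupled, were 125.2 and 520.0 kb from a peak, and Htr5b was 79.4 kb from one. The 3 genes of the Htr2 family were thus at least 442.5 kb from a peak, whereas of the 4 in the Htr1 family Htr1a had a peak within 1 kb.

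Drd2 encodes the Gi/o-coupled dopamine receptor that also acts as an autoreceptor on dopamine neurons, and it was the receptor gene of the 32 with more than 1 peak. The first, on chromosome 9 at 49341025 to 49341425, lay inside the gene with its midpoint 822 bp downstream of the listed start. The second, at 49403705 to 49404105, was also inside, 4272 bp from the 3′ end and 63502 bp downstream of the listed start. Its midpoint was 503 bp from an end of the lncRNA gene Gm46111. Of all protein-coding genes with a peak, 221 of 1640 (13.5%) had more than 1, compared with 1 of the 8 receptor genes.

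The remaining dopamine receptor genes had no peak by the rule. Drd5, which is Gs-coupled like Drd1, was 24.3 kb from its closest peak, and that peak lay on chromosome 5 at 38346595 to 38346995. Drd1 was 102.9 kb away from one. Drd4 and Drd3, which share the Gi/o coupling of Drd2, were 369.3 and 1077 kb from a peak. Drd2 was therefore the member of its Gi/o-coupled trio with a peak.

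Adrenergic receptor genes had no peak by the rule, and the closest lay 18.1 kb from Adra2c, on chromosome 5 at 35299615 to 35300015. The other genes of the Gi/o-coupled alpha2 receptors, Adra2a and Adra2b, were 105.0 and 165.3 kb from a peak. For the Gq/11-coupled alpha1 receptors the distances were 101.8 kb for Adra1a, 395.7 kb for Adra1d and 1087 kb for Adra1b. Adrb3 and Adrb1, which encode Gs-coupled beta receptors, were among the farthest of the 32 genes, 1530 and 2363 kb from a peak. With 8 genes, a count of 0 allows a share of up to 36.9% (exact 95% interval), and a group of this size could not show a share below the 7.49% of all protein-coding genes.

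Of the muscarinic receptor genes, Chrm2 and Chrm4 encode the Gi/o-coupled receptors, and both had a peak on the 5′ side. The Chrm4 peak lay on chromosome 2 at 91921145 to 91921545, with its midpoint 844 bp before the listed start. It was also within 10 kb of Ambra1, at 2496 bp, and of Mdk, at 8460 bp. The Chrm2 peak, on chromosome 6 at 36377955 to 36378355, was 9836 bp outside the gene span and inside the lncRNA gene 9330158H04Rik. Chrm2 was the gene just inside the limit of 10 kb, and Adra2c, at 18052 bp, was the gene just outside it.

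Chrm5, a Gq/11-coupled receptor gene, had a peak on chromosome 2 at 112477725 to 112478125. Its midpoint was 808 bp outside the 3′ end and 5762 bp from an end of the neighbour Emc7. The midpoint was also 2892 bp downstream of the 1 listed start. That start lay inside the 57.6 kb span near its 3′ end, far from the annotated 5′ end. Chrm1 and Chrm3, the other Gq/11-coupled genes, were 284.7 and 337.2 kb from their closest peaks. Chrm3 had the longest span of the 32 genes, 485.6 kb, and no peak inside it.

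**Figure D2:**
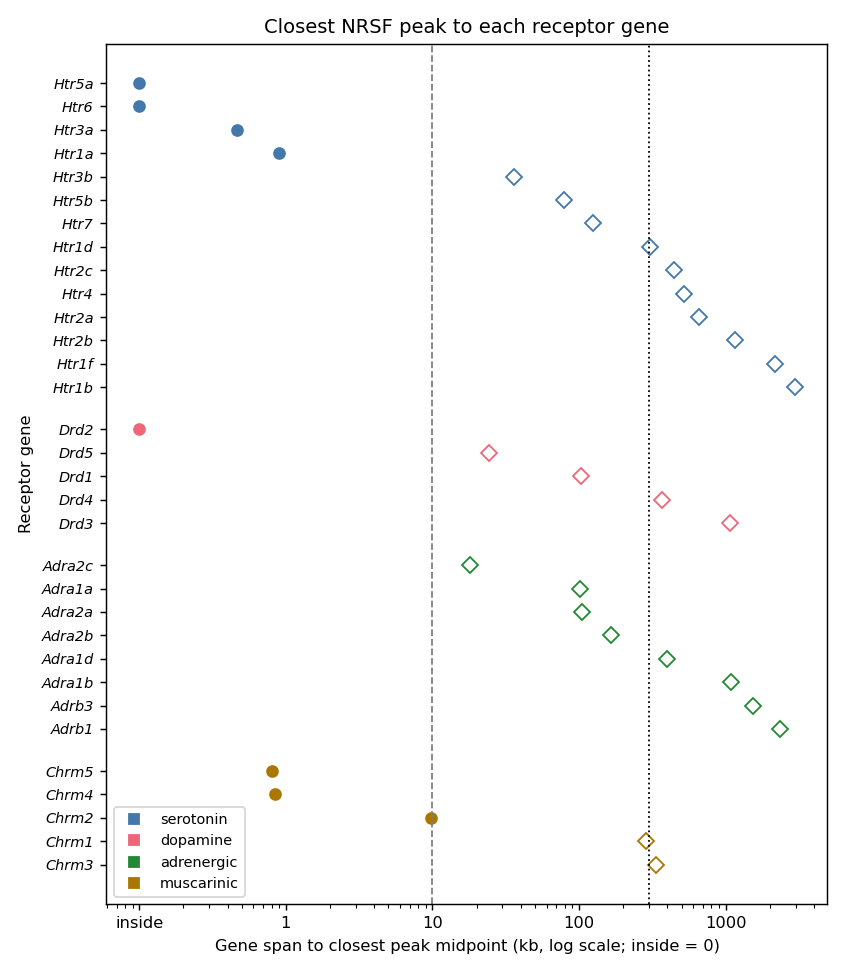
For each receptor gene, the distance in kb from its span to the closest peak midpoint is shown on a log scale, with genes that hold a midpoint inside the span placed at the left end. Filled circles are the 8 genes with a peak by the 10 kb rule (dashed line), open diamonds are the other 24, and the dotted line is the median of all protein-coding genes, 298.2 kb. Adrenergic receptor genes all lie to the right of the dashed line, whereas 3 of 5 muscarinic receptor genes lie to its left.

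Set side by side, the shares of the 4 groups were 28.6% for serotonin receptors (exact 95% interval 8.39 to 58.1%), 20.0% for dopamine receptors (0.505 to 71.6%), 0% for adrenergic receptors (0 to 36.9%) and 60.0% for muscarinic receptors (14.7 to 94.7%). These Clopper-Pearson intervals cover counting error only and treat the genes as independent, although many are relatives of each other. The intervals of all 4 groups overlapped, and the difference between groups was not tested. Sorted by coupling instead, 5 of 13 Gi/o-coupled genes had a peak (Htr1a, Htr5a, Drd2, Chrm2 and Chrm4), compared with 1 of 9 Gq/11-coupled genes (Chrm5), 1 of 7 Gs-coupled genes (Htr6) and 1 of the 2 channel subunit genes (Htr3a). Htr5b was left without a class. The shares were 38.5% for Gi/o, 11.1% for Gq/11 and 14.3% for Gs, beside 7.49% of all protein-coding genes. The Gq/11 and Gs shares rest on 1 gene each. The intervals of the Gi/o class (13.9 to 68.4%) and the Gq/11 class (0.281 to 48.2%) overlapped as well.

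Among all protein-coding genes, longer ones had a peak more often, and the receptor genes ranged in span from 3.0 kb (Drd5 and Adrb1) to 485.6 kb. The median span was 19.1 kb for the receptor genes and 17.1 kb for all protein-coding genes. Of the 11 receptor genes under 10 kb, 2 had a peak (18.2%), against 4.64% of all protein-coding genes of that length. From 10 to 50 kb the count was 3 of 9 (33.3%), against 6.33%, and from 50 kb upwards it was 3 of 12 (25.0%), against 14.2%. The share of the receptor genes was above that of all genes in each class of span. Each of these receptor shares rests on 2 or 3 genes with a peak, and the differences were not tested. The adrenergic group, with a median span of 4.6 kb, and the dopamine group, with 4.5 kb, had shorter genes than the muscarinic group, with 57.6 kb, and the part of this difference in the group counts was not tested.

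**Figure D3:**
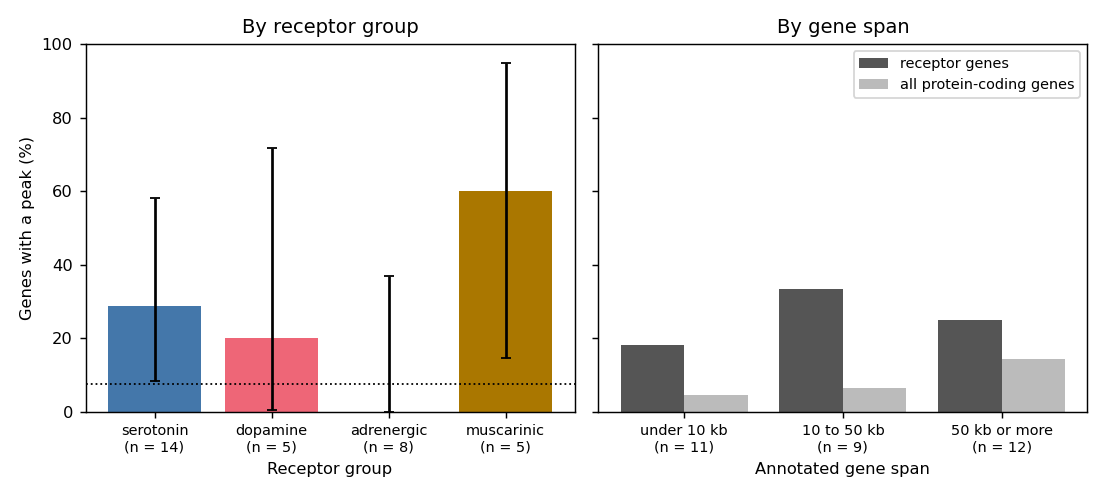
Left, the percentage of genes with a peak in each receptor group, with exact 95% intervals and the 7.49% of all protein-coding genes as a dotted line. Right, the same percentage by annotated gene span for receptor genes (dark bars, n under each) and all protein-coding genes (light bars), where the receptor genes stand at 18.2, 33.3 and 25.0% and all genes at 4.64, 6.33 and 14.2%.

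The peaks at receptor genes gathered at gene ends. The midpoint was at most 1 kb from a gene end in 7 of the 9 peaks, each at a different gene, so that 7 of 32 receptor genes had a peak there, compared with 1.58% of all protein-coding genes. Inside the gene span there were 4 peaks, at Htr5a, Htr6 and Drd2, and thus 3 of 32 genes, compared with 4.43% of all. Where a transcription start was listed, 4 of 25 receptor genes had a midpoint within 1 kb of it (Htr1a, Htr5a, Drd2 and Chrm4), compared with 237 of 17492 protein-coding genes (1.35%). At Htr6 and Chrm5 the closest gene end was the 3′ end. In all, 3 of the 9 peaks, those of Htr6, Chrm4 and Chrm5, also lay within 10 kb of another protein-coding gene, and in each case the receptor gene had the closer end.

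**Figure D4:**
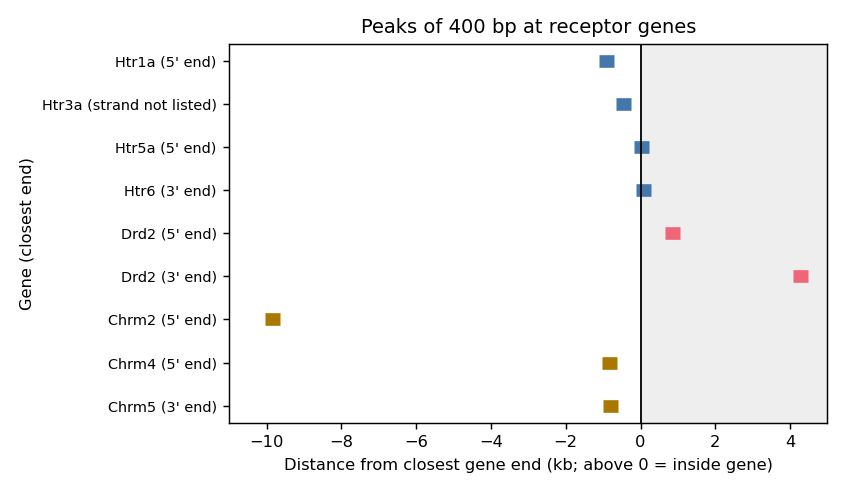
Each bar is a peak of 400 bp, placed by the distance in kb of its midpoint from the closest annotated gene end (0), with the inside of the gene shaded and the name of that end in brackets. Of the 9 peaks, 7 sit within 1 kb of the end, while the Chrm2 peak lies 9.84 kb outside and the second Drd2 peak 4.27 kb inside.

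The median distance to the closest midpoint was 145.3 kb over all 32 genes, compared with 298.2 kb over all protein-coding genes. Over the 24 receptor genes without a peak it was 353.2 kb, beside 343.7 kb over the protein-coding genes without one. Drd5, Adra2c and Htr3b were the genes with a peak beyond the rule but within 50 kb. With the 8 already counted by the rule, 11 of 32 (34.4%) were within that distance, against 16.2% of protein-coding genes. Among genes without a peak by the rule, it was 3 of 24 receptor genes (12.5%), against 9.45% of protein-coding genes. At the other end, 7 of 32 (21.9%) were more than 1 Mb from any peak, against 19.4% of all. These were Htr1b, Htr1f, Htr2b, Drd3, Adra1b, Adrb1 and Adrb3.

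Htr3a, Htr3b and Drd2 were the receptor genes with another member less than 1 Mb away, all on chromosome 9. Between Htr3b and Drd2, 375.4 kb apart, there was 1 further peak. Chromosomes 2, 9 and 19 carried 4 receptor genes each. On chromosome 2, Chrm4 and Chrm5 had a peak and Adra1d and Adra2b had none. On chromosome 9, Htr3a and Drd2 had one and Htr1b and Htr3b had none. On chromosome 19, Htr7, Adra2a, Adrb1 and Chrm1 had none. With 4 genes, a count of 0 is near the 7.49% of all protein-coding genes.

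The genes around these receptors in signalling were counted in the same way, beside the 7.49% of all protein-coding genes. Of 10 other aminergic receptor genes, for histamine and trace amines, 1 had a peak, which was Hrh3, with the midpoint 111 bp outside a gene end. Among 18 G protein subunit genes 4 had a peak (22.2%), the closest to a gene end at Gng4, a gamma subunit, 1176 bp inside, followed by Gnb1, 3594 bp inside, and Gna11, 4809 bp outside. Adenylyl cyclases and phospholipase C beta enzymes, which receive the signal from the G protein, had 3 of 13 genes with a peak (23.1%). These were the cyclase genes Adcy5, Adcy3 and Adcy7, each with the peak inside the span, 3158, 22319 and 24420 bp from an end.

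No gene had a peak among 13 receptor kinases, arrestins and RGS proteins, which end the signal. The same was true of 11 macrophage chemoattractant and related receptors. Of 18 neuropeptide and opioid receptor genes 1 had a peak, Oprm1, the mu opioid receptor gene (5.56%). With so few genes, these counts and the 1 of 10 of the other aminergic receptors are near the 7.49% of all protein-coding genes. The kinases, arrestins and RGS proteins had long genes, with a median span of 71.6 kb. Their count of 0 of 13 therefore stands beside the 14.2% of genes from 50 kb upwards, a difference that was not tested. Among other transmitter receptors, a comparison added with the data known, 3 of 11 neuronal nicotinic receptor genes (27.3%) and 5 of 8 metabotropic glutamate receptor genes (62.5%) had a peak. The lists differed in gene length: the median span was 318.2 kb for the metabotropic receptors, 115.1 kb for the cyclases and phospholipases, 71.6 kb for the kinases, arrestins and RGS proteins and 46.8 kb for the G proteins. It was 20.8 kb for the nicotinic receptors, 10.1 kb for the neuropeptide and opioid receptors, 7.5 kb for the chemoattractant receptors and 2.0 kb for the other aminergic receptors. The share of all protein-coding genes with a peak was 4.64% under 10 kb of span, 6.33% from 10 to 50 kb and 14.2% from 50 kb upwards. None of these differences from the 25.0% of the 32 receptor genes was tested.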

How the data were processed

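NRSF ChIP-seq was deposited for 2 immunoprecipitated samples and 1 input of mouse RAW264.7 cells. Per the labels' protocols, cells were fixed with 1% formaldehyde and fragments of 200 to 300 bp were kept. The submitters' processing notes name Bowtie 0.12.8, MACS 1.4.2 and mm10, with no further role. For the peak threshold and for how replicates were joined, nothing is given in the sources used here. The deposited mouse list holds the authors' peak positions in bp and no score. No source says whether positions count from 0 or 1, so each may be off by 1 base.

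Gene spans and promoter windows came from RefSeq tables of GRCm38.p6. Transcription starts and strands were taken from the promoter windows, where listed. Peaks were tied to genes by midpoint with a reach of 10 kb, and a peak near several genes counted for each. The members, coupling classes and gene lists were chosen with earlier results of these data known, so no set test was run and shares carry exact 95% Clopper-Pearson intervals. Every receptor gene is named, and in each related list up to 3 genes whose peak lay nearest to an annotated end. Python 3.11.15 with scipy 1.17.1, numpy 2.4.6, pandas 2.3.3 and matplotlib 3.10.9 was used. Gene assignment and core search were tested on simulated data.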

Additional observations from a re-analysis of the deposited data

How the results depend on the processing

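With other reaches, with gene ends alone, with any overlap of the peak, or with each peak given only to the closest gene end, 7 to 11 of the 32 receptor genes had a peak. Over these settings the share of all protein-coding genes ran from 5.0% at a reach of 1 kb to 16.2% at 50 kb. The count of 11 receptor genes was that at 50 kb. With a reach of 1 or 5 kb, 2 of the 5 muscarinic receptor genes had a peak. Larger changes came from a few settings. Only inside the gene span, 3 receptor genes had a peak, of which 2 were serotonin and 0 muscarinic receptor genes, and the share of all protein-coding genes was 4.43%. A reach of 20 kb gave 1 adrenergic receptor gene, Adra2c. A reach of 50 kb gave 2 dopamine and 1 adrenergic receptor genes and 16.2% of all protein-coding genes. Within 1 kb of a listed transcription start, a setting added after the data were seen, 4 receptor genes had a peak. The RE1 core with at most 1 difference was in 61 windows, 1 of them of a receptor gene, and with no difference in 12 windows, 0 of them of a receptor gene. Of 54 alternative values in all, 41 were within 1.5 times the value reported. Many of these were counts of few genes, such as 0 adrenergic or 1 dopamine receptor gene, and 2 against 3 muscarinic genes was also within that limit. The tally therefore says little about how stable the group counts are.

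A stricter peak threshold could not be tried, because the list holds no score. Leaving out a replicate could not be tried either, because there is no value per replicate. No paired analysis was possible because the 2 immunoprecipitated samples share 1 list. The depth and the peak threshold are unknown, and binding below that threshold was not measurable here.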
